A study of Mus musculus with 8 samples.

Results

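The 84 protein-coding genes of the cytosolic ribosome were followed in the mouse uterus over the 4 stages of the estrous cycle. Members were taken by symbol (Rpl or Rps with a number, and Rplp0, Rplp1, Rplp2 and Rpsa) from the 52308 genes of the deposited table. They comprise 32 genes of the small subunit, 49 of the large subunit and 3 of the stalk, and are spread over 19 chromosomes, with 14 on chromosome 7. The tissue is uterus, taken from female mice of the outbred ICR stock at 6 to 8 weeks of age whose stage was read from stained vaginal smears, and polyadenylated RNA was sequenced in stranded libraries. The 4 groups are proestrus, estrus, metestrus and diestrus with 2 libraries each. They share stock, sex, age range and tissue, no genetic change or treatment is named, and the labels tell them apart by stage alone. Whether 2 libraries of a stage were made from separate animals is not stated in the labels. The p-values therefore reflect the spread between these 8 samples alone, and that spread may be technical.

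Ribosomal proteins are the structural proteins of the particle that makes all cytosolic protein. They are needed in equal numbers, and their mRNAs are among the most abundant of any tissue. In vertebrates these mRNAs start with a C and a run of pyrimidines, the terminal oligopyrimidine (TOP) tract, through which growth signals acting by way of mTOR and Larp1 control their translation and stability. In the rodent uterus, the estrogen rise before ovulation is known for a burst of RNA and protein synthesis. Ribosome building in the nucleolus depends on a separate set of assembly factors, many of them known targets of Myc.

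The TOP tract is a sequence known for such genes that the choice by symbol did not use. RefSeq start sites (GRCm38.p6) were found for 64 of the 84 members, and 13 of these 64 (20.3%) had a C at an annotated start followed by 4 or more pyrimidines, against 3.0% of the 27025 genes with an entry. A run of 8 or more pyrimidines reaching within 15 bases of a start was found in 31 members (48.4%) and in 20% of all these genes. The 30 bases around the start are shown for 5 members whose levels are described below, 15 bases before the start and 15 from the start on, with the pyrimidine run that spans the start in capitals.
Rplp2 (chr7:141447636-141447665, plus strand): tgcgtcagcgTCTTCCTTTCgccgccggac
Rps27 (chr3:90213634-90213663, minus strand): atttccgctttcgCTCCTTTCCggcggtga
Rpl35a (chr16:33056467-33056496, plus strand): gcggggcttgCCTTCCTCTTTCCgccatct
Rps10 (chr17:27635230-27635259, minus strand): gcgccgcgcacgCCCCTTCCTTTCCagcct
Rps21 (chr2:180257364-180257393, plus strand): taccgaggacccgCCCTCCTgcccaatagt
The run is 13 bases long in Rpl35a and Rps10, 10 in Rplp2, 9 in Rps27 and 7 in Rps21. Of 7 motifs searched on both strands in the 300 bases around the starts, CGGAAG was found in 43 of the 64 members (67.2%) against 18.8% of all genes, and CCGGAA, which overlaps it by 5 letters, in 35 (54.7%) against 16.7%. GGGCGG was found in 62.5% against 38.2%, CCAAT in 31.2% against 41.1%, TATAAA in 10.9% against 15.7%, AGGTCA in 10.9% against 18.1% and CACGTG in 9.4% against 8.1%. A match is a description of these letters and not a binding site. In addition, 30 of the 84 members enclose a small nucleolar RNA gene, 58 such genes in all.

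Ribosomal protein mRNA was abundant in every library. Of the 84 members, 75 had a mean of 100 CPM (counts scaled to the library size, which TMM factors adjust for composition) or more, and 12 had 1000 CPM or more. Per kilobase of transcript, the highest levels were those of Rplp1 (2074 CPM per kb), Rpl41 (1836), Rps12 (1765) and Rpl10a (1563). Rplp1 encodes an acidic stalk protein, Rpl41 the smallest ribosomal protein. Enough counts for a test were found for 81 members. The other 3 are relatives of ribosomal proteins with tissue-restricted expression: Rpl10l, known from the testis, had no count in any library, Rpl39l, also known from the testis, had 0 to 4 counts per library, and Rpl3l, known from heart and skeletal muscle, had 0 to 12.

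The summed level of the 84 genes was high in both proestrus libraries and in diestrus library 1. Members held 5.22% and 5.79% of all gene counts at proestrus, 4.54% and 4.5% at estrus, 4.61% and 4.48% at metestrus, and 5.85% and 5.19% at diestrus. Both libraries of proestrus and both of diestrus thus lay above all 4 of estrus and metestrus. After TMM scaling the sums were 58110 and 60490 CPM at proestrus, 48540 and 46690 at estrus, 43570 and 41410 at metestrus, and 57570 and 46700 at diestrus. On this scale metestrus lay below estrus and the second diestrus library lay between the estrus libraries, so the place of metestrus and diestrus depends on the scaling. The composition of the sum moved little: the small subunit made up 39.98% ± 0.113 of member counts at proestrus, 39.95% ± 0.502 at estrus, 41.11% ± 0.149 at metestrus and 40.6% ± 0.156 at diestrus (SD, n = 2). In these bulk samples, fewer cells of a type and less RNA per cell cannot be told apart.

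**Figure D1:**
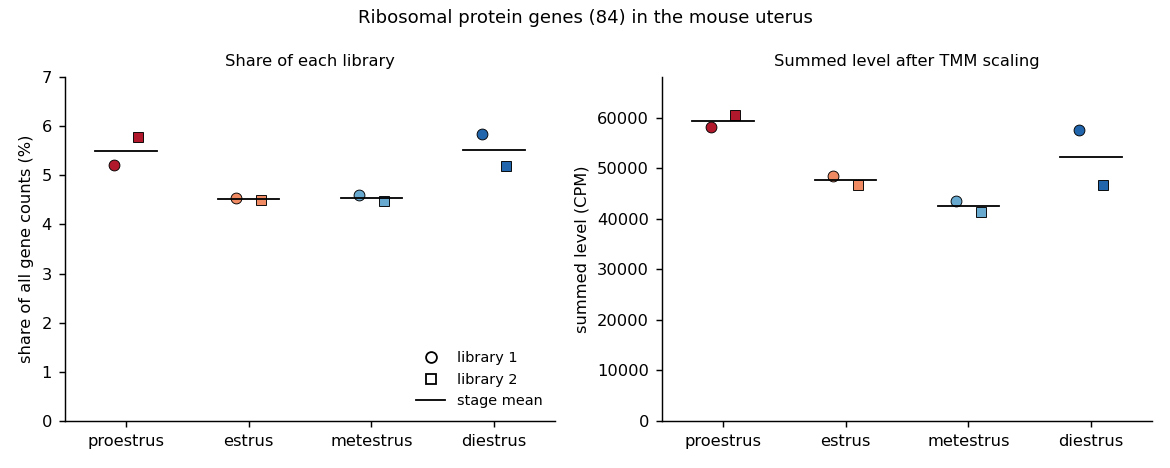
Share of all gene counts held by the 84 ribosomal protein genes (left, %) and their summed level after TMM scaling (right, CPM), by stage, with a circle for library 1, a square for library 2 and a line at the stage mean. Estrus and metestrus have the lowest shares, between 4.48% and 4.61%, and the diestrus libraries lie farthest apart on the right, at 57570 and 46700 CPM.

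Single members followed the sum with small differences. Across the 4 stages, 17 of 81 tested members changed (21.0%; edgeR quasi-likelihood test, Benjamini-Hochberg adjusted p under 0.05), a smaller share than the 39.1% of all 18114 tested genes. Among the 17 were Rpl7, Rpl7l1, Rpl9, Rpl10a, Rpl11, Rpl19, Rpl22l1, Rpl29, Rpl32, Rpl37a and Rpl39 of the large subunit and Rps2, Rps10, Rps12, Rps14 and Rps27l of the small. Proestrus was the highest stage of 71 of the 81 members, against 23.5% of all tested genes, and metestrus the lowest of 60, against 26.0%. Both tallies are on the TMM scale: with library totals, 38 of the 81 had a higher level in proestrus than in diestrus and 35 a lower one in metestrus than in estrus. The count depends on single libraries: leaving out proestrus library 1 gave 3 and library 2 gave 2, leaving out estrus library 1 gave 1 and library 2 gave 2, leaving out either metestrus library gave 1, and leaving out diestrus library 1 gave 54 and library 2 gave 65, each with all of the 17 among them, where 47.5% and 50.3% of all genes passed. With DESeq2 the count was 44, where 47.1% of all genes passed.

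From proestrus to estrus the members were lower as a group, by little. The median log2 fold change of the 81 was -0.31, against 0.01 over all genes, and 80 were below 0. In 77 of 81, both estrus libraries lay below both proestrus libraries, which was so for 33.3% of all tested genes, and in 0 members they lay above (34.2%). In the test, 6 members fell (6.94% of all genes fell) and 0 rose (8.12%): Rpl22l1, Rpl7l1, Rps2, Rpl41, Rps27l and Rps12, and 29 of the 81 had an unadjusted p under 0.05, all of them lower, where 33.4% of all genes had one in either direction. The count was 18 with DESeq2 (10.7% of all genes lower, 10.3% higher), 0 without proestrus library 2 or estrus library 2, 1 without estrus library 1 or either metestrus library, 2 without proestrus library 1 and 31 without either diestrus library (12.5% and 12.4% of all genes then fell).

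From estrus to metestrus the members went different ways. Rps10, Rpl7l1, Rpl13a and Rps2 rose, 4 of 81 against 16.7% of all genes, and Rps27, Rps14, Rpl10a, Rpl9, Rpl37, Rpl37a and Rpl7 fell, 7 of 81 against 19.5%. Among all genes 36.2% changed. Both metestrus libraries lay below both of estrus in 46 members (40.2% of all genes) and above them in 9 (36.3%). The median log2 fold change was -0.13, against -0.05 over all genes. With library totals in place of TMM, the median of all genes moved to 0.12 and that of the members to 0.04, 4 members rose and 0 fell, so the 7 falls were called on the TMM scale and not on that of library totals. Under either scaling, 54 of the 81 members lay below the median of all genes. The count of 11 was 3 without either proestrus library, 1 without estrus library 1 or either metestrus library, 2 without estrus library 2, and 18 when either diestrus library was dropped, 4 higher and 14 lower (21.4% and 21.3% of all genes then rose and 22.2% fell).

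From metestrus to diestrus, 0 of 81 members passed with edgeR, 18 had an unadjusted p under 0.05 (17 of them higher in diestrus), where 18.3% of all genes had one, 0 passed with limma-voom and 2 with DESeq2 (3.28% of all genes higher, 3.12% lower). Of all genes, 0.508% passed, 0.282% higher and 0.226% lower. The median log2 fold change was 0.29 (0.02 over all genes) and 74 members were above 0. Both diestrus libraries lay above both of metestrus in 55 members, against 24.2% of all genes, and below in 6, against 24.8%. Without diestrus library 2, 20 members rose, where 5.27% of all genes did, without diestrus library 1, 0 did (0.809% of all genes), and without either estrus library 1 did.

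On the TMM scale, metestrus and proestrus were the stages with the largest median difference. The median log2 fold change of metestrus against proestrus was -0.45 (0.01 over all genes), 79 of 81 members were below 0, and in 74 both metestrus libraries lay below both proestrus libraries (34.6% of all genes). In the test 22 members were lower (10.3% of all genes) and 1, Rps10, was higher (6.68%). Among the 22 were Rpl3, Rpl6, Rpl7, Rpl9, Rpl10, Rpl10a, Rpl11, Rpl19, Rpl22l1, Rpl29, Rpl32, Rpl37, Rpl37a, Rpl39, Rps7, Rps12, Rps14, Rps20, Rps23, Rps27a and Rps29. The total of 23 was 49 with DESeq2 (13.1% of all genes lower, 9.84% higher), 57 without either diestrus library (14.1% and 14.0% of all genes then lower), 3 without either estrus library, 1 without proestrus library 1 and 0 without proestrus library 2 or either metestrus library. With library totals 6 passed, the all-gene median moved to 0.21 and that of the members to -0.25, where estrus against proestrus had -0.28 and estrus against diestrus -0.26.

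Proestrus and estrus differed from diestrus in few members. Against diestrus, Rps27l and Rpl7l1 were higher in proestrus (2 of 81, against 12% of all genes) and Rps10 was lower (1 of 81, against 10.4%). Rps10 and Rps2 were lower in estrus than in diestrus (2 of 81, against 9.97%), and 0 members were higher (13.9%), with 4 members at an unadjusted p under 0.05, none of them higher, where 38.5% of all genes had one. In proestrus against diestrus 13 members had one, 12 of them higher, where 37.2% of all genes did. Among all genes 23.8% changed between estrus and diestrus. Both proestrus libraries lay above both of diestrus in 42 members (30% of all genes), and both estrus libraries below them in 27 (30.4%). The median log2 fold changes were 0.18 for proestrus and -0.10 for estrus against diestrus. With library totals the first turned to -0.01, with 38 members above 0 in place of 72, and the second was -0.26, with 77 members below 0 in place of 63. The count of 3 in proestrus against diestrus was 0 when any 1 of the 6 libraries outside diestrus was left out, 16 without diestrus library 1 (11.9% of all genes higher, 10.4% lower) and 2 without diestrus library 2. The count of 2 in estrus against diestrus was 0 without estrus library 2 or either metestrus library, 1 without estrus library 1, 3 without diestrus library 1 (14.1% higher, 13.2% lower) and 14 without diestrus library 2 (10.4% lower). The comparisons share libraries, so their values are not independent of each other.

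**Figure D2:**
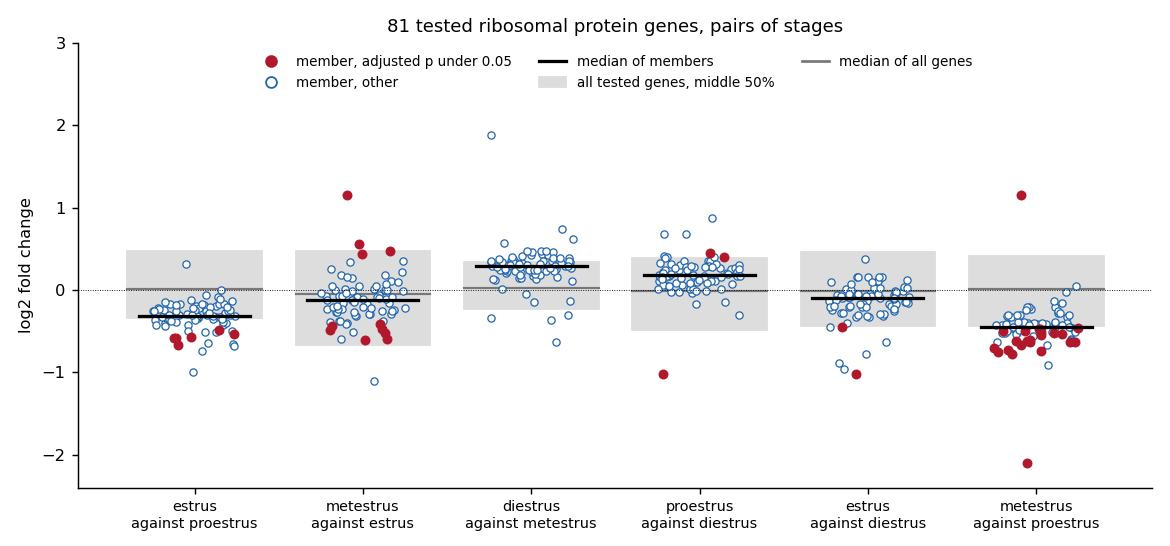
Log2 fold changes of the 81 tested ribosomal protein genes in the 6 pairs of stages, as points (filled red where the adjusted p is under 0.05), with a black line at their median, and the middle 50% and median of all tested genes as a grey box and line. The members lie in a narrow band below 0 in estrus and metestrus against proestrus, and in the latter pair Rps10 lies at 1.15 and Rpl29 at -2.10.

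Members with and without the C and pyrimidines at an annotated start had similar median fold changes. In metestrus against proestrus the median log2 fold change was -0.42 in the 13 with such a start, -0.46 in the 48 tested members with another start and -0.48 in the 20 with no entry. The median was -0.45 in the 32 small-subunit genes and also in the 46 tested large-subunit genes. These medians were not tested against each other. The split by start rests on annotated starts, and members placed outside it may still carry a TOP tract. It therefore cannot show whether the tract matters for these changes.

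The stalk proteins, which recruit the elongation factors to the ribosome, and Rpsa, a small-subunit protein also known as the laminin receptor, did not pass the test across the stages. Rplp0, the base of the stalk, had 2696 and 2468 CPM at proestrus, 2235 and 1758 at estrus, 1944 and 1444 at metestrus, and 2275 and 1880 at diestrus (adjusted p = 0.172, edgeR). Its stages overlapped except for proestrus, which was highest. Rplp1 had 1199 and 1320 CPM at proestrus, 908 and 865 at estrus, 968 and 819 at metestrus, and 1202 and 999 at diestrus (adjusted p = 0.0733). Rplp2, its partner, had 550 and 603, 420 and 429, 475 and 474, and 586 and 448 CPM over those stages (adjusted p = 0.161). Both were lowest on average in estrus, below both proestrus libraries. Rpsa had 1327 and 2012, 1271 and 869, 1582 and 1157, and 1359 and 1957 CPM, so its stages overlapped (adjusted p = 0.308).

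Among the members with a paralogue, Rpl7l1 departed from its parent Rpl7. Rpl7l1 is the relative of Rpl7 that corresponds to an assembly factor of the large subunit in yeast (ENSMUSG00000063888, chromosome 17, 46773907 to 46782672, minus strand), and it had the smallest p of all members. It had 160 and 162 CPM at proestrus, 104 and 111 at estrus, 156 and 160 at metestrus, and 121 and 124 at diestrus. Proestrus and metestrus were high and did not separate, estrus was lowest, and diestrus lay between without overlap. It changed across the stages (adjusted p = 0.00936, edgeR; 0.00590 to 0.0539 with 1 library left out, lost without estrus library 1). Between proestrus and estrus it fell by 0.59 ± 0.09 on the log2 scale (adjusted p = 0.0127; up to 0.0963, lost without any 1 library of proestrus or estrus). It rose from estrus to metestrus by 0.56 ± 0.09 (adjusted p = 0.00654), and this was called in all 8 fits without 1 library (at most 0.0493) and in all 11 other alternatives.

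Rpl7 itself, a large-subunit protein (ENSMUSG00000043716, chromosome 1, 16101295 to 16104662, minus strand), fell where Rpl7l1 rose. It had 1759 and 1708 CPM at proestrus, 1534 and 1552 at estrus, 1126 and 1103 at metestrus, and 1487 and 1281 at diestrus. No stage overlapped another. Between estrus and metestrus it fell by 0.47 ± 0.13 (adjusted p = 0.0293, edgeR; up to 0.177, kept only without a diestrus library), and its log2 fold change in metestrus against proestrus was -0.64 ± 0.13 (adjusted p = 0.0214; lost without a library of proestrus or metestrus). The estrus-metestrus call of Rpl7 ended with library totals, no filter or scaling by the members' own sum. Per kilobase, Rpl7l1 stood at 6.0% and 6.33% of Rpl7 in estrus, 12.3% and 12.9% in metestrus, 8.06% and 8.44% in proestrus, and 7.20% and 8.57% in diestrus. This ratio is free of the library scaling.

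Rpl22l1 (ENSMUSG00000039221, chromosome 3, 28805436 to 28807424, plus strand) was highest in proestrus. It encodes the paralogue of Rpl22, an RNA-binding large-subunit protein known to repress it. Rpl22l1 had 40.9 and 54.4 CPM at proestrus, 30.2 and 29.9 at estrus, 25.9 and 30.7 at metestrus, and 37.4 and 34.3 at diestrus. Both proestrus libraries lay above all others. Between proestrus and estrus it fell by 0.67 ± 0.17 (adjusted p = 0.0423, edgeR; up to 0.190, kept only without proestrus library 1 or a diestrus library). Rpl22, with 266 and 314, 259 and 257, 237 and 226, and 263 and 276 CPM, did not pass across the stages (adjusted p = 0.194).

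Rps27l (ENSMUSG00000036781, chromosome 9, 66946086 to 66949516, plus strand), a paralogue of Rps27 known as a p53 target, had 65.6 and 72.1 CPM at proestrus, 44 and 51.5 at estrus, 53.5 and 57.8 at metestrus, and 47.6 and 53.3 at diestrus. Both proestrus libraries lay above all others, and estrus and diestrus overlapped. Between proestrus and estrus it fell by 0.53 ± 0.13 (adjusted p = 0.0375, edgeR; up to 0.205, kept only without a diestrus library). Rps27 had 399 and 429 CPM at proestrus, 380 and 414 at estrus, 285 and 238 at metestrus, and 459 and 320 at diestrus. Metestrus lay below all other libraries. Between estrus and metestrus Rps27 fell by 0.60 ± 0.19 (adjusted p = 0.0489; up to 0.268, kept only without a diestrus library). Per kilobase, Rps27l stood at 13.0% and 16.8% of Rps27 in metestrus, and between 7.18% and 11.6% in the other 6 libraries.

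**Figure D3:**
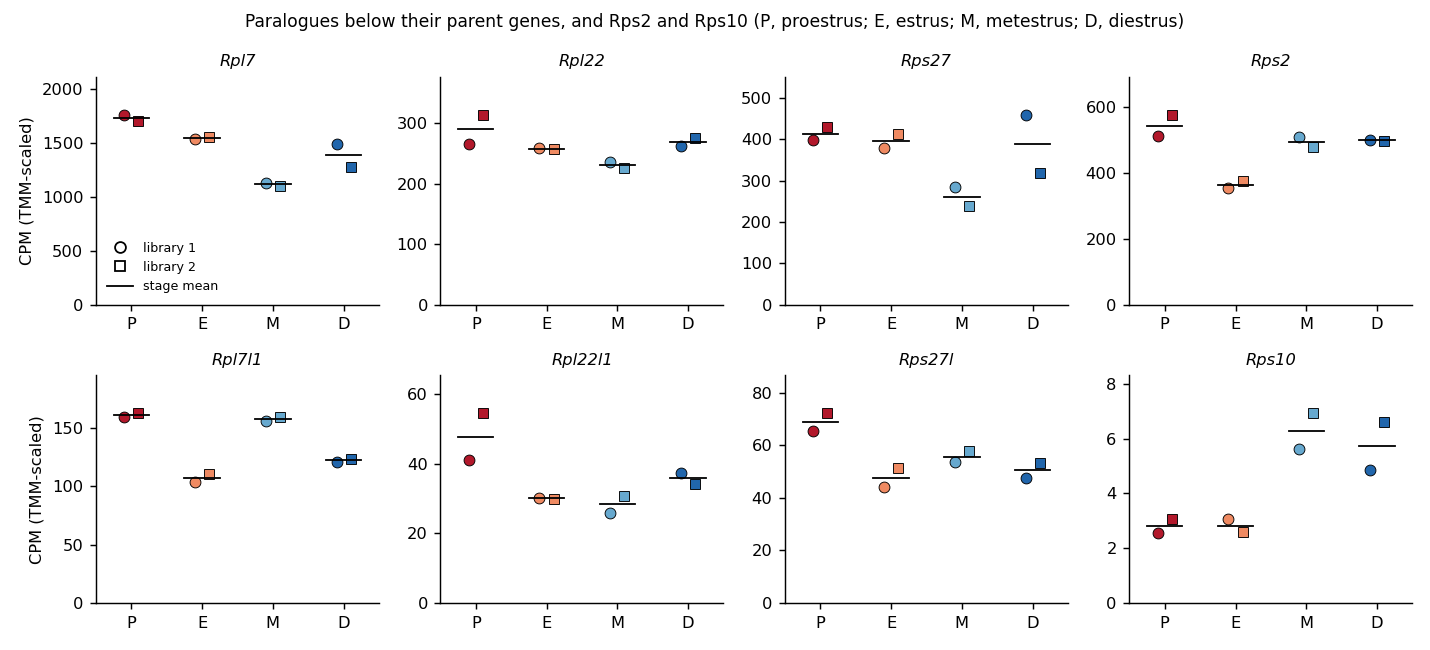
Levels in CPM (TMM-scaled) of Rpl7, Rpl22 and Rps27 (top) above their paralogues Rpl7l1, Rpl22l1 and Rps27l (bottom), and of Rps2 and Rps10 (right), by stage, with a circle for library 1, a square for library 2 and a line at the mean. Rpl7l1 is low in estrus at 104 and 111 CPM and returns to 156 and 160 in metestrus, while Rpl7 is lowest there.

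Rps2, at the entry of the mRNA channel of the small subunit (ENSMUSG00000044533, chromosome 17, 24718116 to 24721929, plus strand), was low in estrus alone. It had 512 and 577 CPM at proestrus, 354 and 376 at estrus, 510 and 481 at metestrus, and 502 and 498 at diestrus. Both estrus libraries lay below the 6 others. Between proestrus and estrus it fell by 0.58 ± 0.12 (adjusted p = 0.0236, edgeR; up to 0.145, kept only without a diestrus library) and rose from estrus to metestrus by 0.44 ± 0.12 (adjusted p = 0.0264; up to 0.125, lost without any 1 library of estrus or metestrus). The rise also ended when the counts of pseudogene copies were added to Rps2.

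Rpl39, Rpl37a, Rpl9 and Rpl32 were also among the 10 members of smallest p in the test of all stages, and each was highest in proestrus and lowest in metestrus. Rpl39, a small protein of the peptide exit tunnel (ENSMUSG00000079641, chromosome X, 37082520 to 37085402, minus strand), had 249 and 269 CPM at proestrus, 192 and 193 at estrus, 149 and 160 at metestrus, and 220 and 174 at diestrus. Proestrus lay above and metestrus below every other library. Its log2 fold change in metestrus against proestrus was -0.75 ± 0.14 (adjusted p = 0.0163, edgeR; up to 0.116, lost without any 1 library of proestrus or metestrus). In the same comparison Rpl9 had -0.73 ± 0.15, Rpl37a -0.63 ± 0.13 and Rpl32 -0.61 ± 0.13. Their adjusted p lay between 0.0231 and 0.0240, and each was kept only without a diestrus library when 1 was left out. None of these 4 passed across the stages when libraries were scaled by the members' own sum, where 2 members, Rpl7l1 and Rps10, did.

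The steadiest members were Rpl21, Rpl23a, Rps21 and Rps15. Rpl21, for example, had 554 and 597 CPM at proestrus, 505 and 515 at estrus, 485 and 509 at metestrus, and 642 and 504 at diestrus (adjusted p = 0.453, edgeR). Rps21, a small-subunit protein, had 254 and 297, 232 and 217, 244 and 219, and 320 and 234 CPM over those stages, again with diestrus library 1 highest. The adjusted p of the other 3 lay between 0.268 and 0.321. Diestrus library 1 was the highest library of Rpl21, and the other stages lay close together.

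The 4 tested members with the lowest levels per kilobase were Rpl24, Rpl36al, Rps10 and Rpl13a. Per kilobase, Rpl24 had 1.21 CPM, Rpl36al 1.34, Rps10 8.85 and Rpl13a 34.0. The paralogue Rpl22l1 had 64.2, and Rps20, the next above Rpl7l1 and the other low paralogues in this order, had 137. Rpl13a, with a mean of 35.55 CPM, was thus near the paralogue Rpl22l1 (35.45). It lay below the 75 members with a mean of 100 CPM or more. Rps10 (ENSMUSG00000052146, chromosome 17, 27630418 to 27636669, minus strand) and Rpl24 (ENSMUSG00000098274, chromosome 16, 55966275 to 55971435, plus strand) encode proteins of the small and the large subunit. These 4 are also the only members with a gene on the same strand that covers over 50% of the transcript in the annotation: RPS10-NUDT3 covers 91.6% of Rps10, Gm28037 71.5% of Rpl24, Gm49383 63.1% of Rpl36al and Gm45713 59.3% of Rpl13a. Each of the 4 overlapping genes has 0 counts in all 8 libraries. How reads in shared exons were counted is not given in the sources used here, and its part in these levels was not tested, so their values are uncertain.

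Rps10 had 2.56 and 3.07 CPM at proestrus, 3.05 and 2.58 at estrus, 5.62 and 6.92 at metestrus, and 4.85 and 6.6 at diestrus. Proestrus and estrus were low, metestrus and diestrus high, with no overlap between the former and the latter. It rose from estrus to metestrus by 1.16 ± 0.27 (adjusted p = 0.0190, edgeR; up to 0.103, lost without any 1 library of estrus or metestrus). When the counts of its pseudogene copies were added, each call of Rps10 given here ended: this one, that across the stages, and those in metestrus against proestrus, proestrus against diestrus and estrus against diestrus. The sum with copies was 16.1 to 26.1 CPM per library, so most of it came from the copies. Rpl13a had 39.8 and 38.9, 27.4 and 31.3, 39.9 and 41.5, and 29.1 and 36.6 CPM in the 4 stages, and rose from estrus to metestrus by 0.47 ± 0.14 (adjusted p = 0.0404; up to 0.185, kept only without a diestrus library). This call also ended with copies added, with no filter and with scaling by the members' own sum. Rpl24 stayed between 0.359 and 1.19 CPM and Rpl36al between 0.454 and 0.973, and neither passed across the stages (adjusted p = 0.848 and 0.473).

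Few members differed much between the libraries of 1 stage. Of 78 members with a mean of 5 CPM or more, 9 lay over 1.5-fold apart in at least 1 stage, against 29.1% of all tested genes that reach this mean. The sets were not matched for level, and 75 members had a mean of 100 CPM or more. The 9 are Rpl10, Rpl12, Rpl23, Rpl29, Rpl30, Rpl35a, Rpl7a, Rps3a1 and Rpsa. For Rpl10, Rpl12 and Rpl23 the gap was in diestrus, where library 1 was higher (1274 and 812 CPM for Rpl10).

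In several of these members the level followed the library and not the stage. Rps3a1, a small-subunit protein (ENSMUSG00000028081, chromosome 3, 86137940 to 86142702, minus strand), had 1390 and 949 CPM at proestrus, 1231 and 426 at estrus, 956 and 1024 at metestrus, and 922 and 354 at diestrus. Estrus library 2 and diestrus library 2 were the low ones, and the stages overlapped (adjusted p = 0.587, edgeR). Rpl35a had 224 and 234, 199 and 87.2, 68.2 and 175, and 94.7 and 191 CPM in the 4 stages, with estrus 2, metestrus 1 and diestrus 1 low (adjusted p = 0.497). Rpl30 had 201 and 210, 76.3 and 184, 156 and 173, and 337 and 169 CPM, with estrus 1 low and diestrus 1 high (adjusted p = 0.331).

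Rpl29 (ENSMUSG00000048758, chromosome 9, 106429454 to 106431568, plus strand) also took a high or a low level. It had 384 and 401 CPM at proestrus, 300 and 93.4 at estrus, 98.4 and 85.0 at metestrus, and 336 and 338 at diestrus. Estrus 2 and both metestrus libraries were low, and no library lay between 98.4 and 300 CPM. Its log2 fold change in metestrus against proestrus was -2.10 ± 0.48, the largest of the 81 members in that pair (adjusted p = 0.0312, edgeR; up to 0.186, lost without any 1 library of proestrus or metestrus). With the counts of its 32 copies added, the low libraries stood at 145 to 155 CPM and the others at 340 to 457.

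Ribosomal protein genes have many processed pseudogenes, copies of the mRNA inserted elsewhere in the genome, so reads can fall to either. The median member shared 58.7% of its 50-base words with transcripts of other genes, and 53 members shared 50% or more. These other genes include overlapping ones on the opposite strand as well as pseudogenes. By shared words, 492 pseudogene copies in the table were assigned to 75 members. Together the copies held 0.250% to 0.433% of the counts of a library. Rps3a3 on chromosome 13 (108670603 to 108671397, plus strand) matched Rps3a1 over 795 bases at 98.9% identity, Gm5619 on chromosome 9 (85781868 to 85782627, minus strand) matched Rpl7a over 760 bases at 98.9%, and Rpsa-ps10 on chromosome 3 (150072658 to 150073542, minus strand) matched Rpsa over 885 bases at 99.3%. Stretches of 60 coding bases (GENCODE M21 transcripts, GRCm38) show how few letters separate a gene from its copy, with the differing bases in capitals.
Rps3a1: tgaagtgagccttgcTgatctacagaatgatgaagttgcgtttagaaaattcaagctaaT
Rps3a3: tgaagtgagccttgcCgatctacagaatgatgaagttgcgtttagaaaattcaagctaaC
Rpl7a: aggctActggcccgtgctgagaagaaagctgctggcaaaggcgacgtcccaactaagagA
Gm5619: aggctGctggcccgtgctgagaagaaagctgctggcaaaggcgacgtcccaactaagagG
Rpsa: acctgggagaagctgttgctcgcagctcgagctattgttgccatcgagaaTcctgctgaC
Rpsa-ps10: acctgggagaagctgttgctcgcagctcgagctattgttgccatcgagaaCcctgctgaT
Each stretch differs at 2 of 60 bases, and it is the stretch of the coding sequence with the most differences.

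For Rps3a1 and Rpl7a, a copy was high in the libraries where the gene was low. Rps3a3 had 210 CPM in proestrus 2, 361 in estrus 2, 191 in diestrus 1 and 287 in diestrus 2, and 9.96 to 13.9 CPM in the 4 other libraries. The 4 libraries with the high copy were the 4 lowest of Rps3a1. Gm5619 had 77.8 CPM in proestrus 1, 63.4 and 68.3 at estrus, 68.8 and 31.2 at metestrus, and 5.08 to 5.75 in proestrus 2 and both diestrus libraries. Rpl7a had 1199, 1032 and 1006 CPM in those last 3 libraries and 519 to 697 in the others. Rpsa-ps10 had 20.8 CPM in diestrus 2 and 313 to 942 CPM elsewhere, and diestrus 2 was among the 2 highest libraries of Rpsa.

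Adding the copies brought the libraries closer together in some of these genes. Of the 9 members over 1.5-fold apart in a stage, 8 remained so with copies added, Rpsa being the exception. Between the highest and the lowest library, Rps3a1 went from 3.92-fold to 2.07-fold, Rpsa from 2.32-fold to 1.76-fold and Rpl7a from 2.31-fold to 1.98-fold. With copies added, Rpsa stood at 2263 and 2538 CPM at proestrus, 1604 and 1442 at estrus, 2034 and 1894 at metestrus, and 2345 and 2003 at diestrus. Estrus then lay below all other libraries, and Rpsa passed across the stages (adjusted p = 0.0453, edgeR), where the gene alone had 0.308. Rps2 differed from these: its copy Rps2-ps13 on the X chromosome had 496 and 585, 373 and 372, 460 and 468, and 496 and 513 CPM, and was low in estrus like the gene. With all copies added, 18 members changed across the stages (39.8% of all genes), of which 16 were among the 17. This alternative was chosen after seeing the data.

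**Figure D4:**
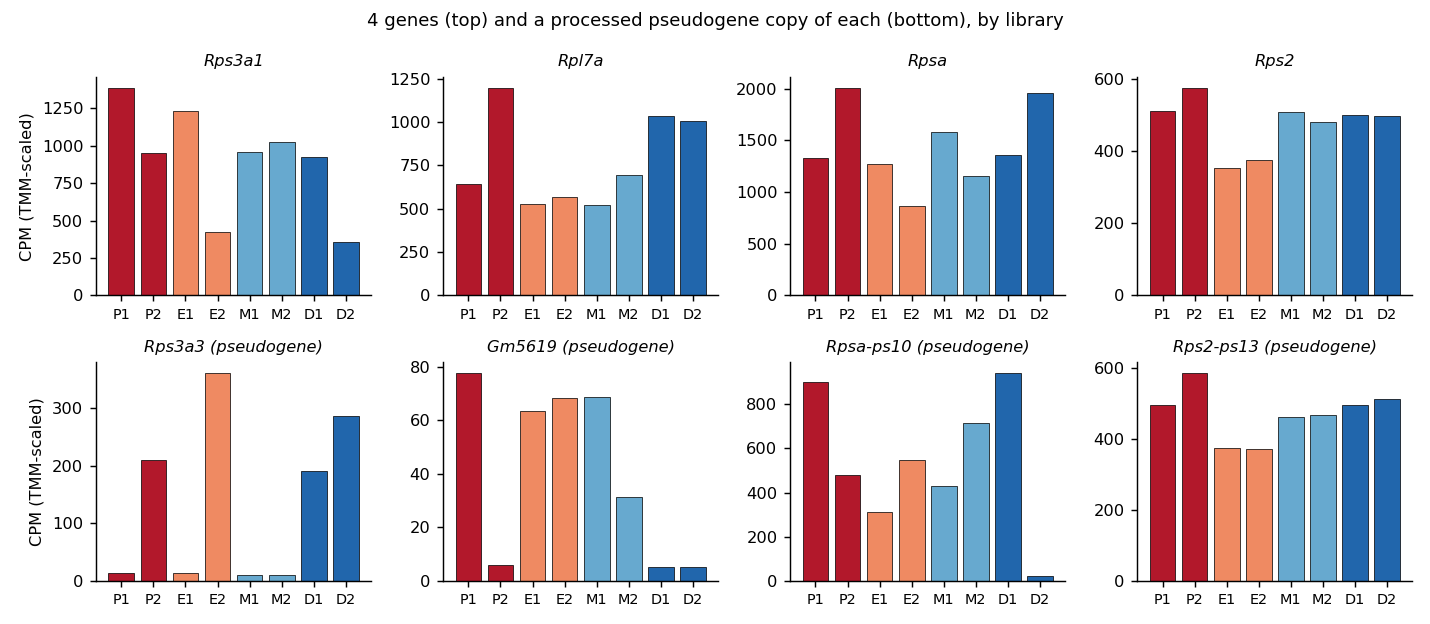
Levels in CPM (TMM-scaled) of Rps3a1, Rpl7a, Rpsa and Rps2 (top) and of 1 processed pseudogene copy of each (bottom) in the 8 libraries, labelled by stage (P, E, M, D) and number. Rps3a3 and Gm5619 are high where the gene is low, Rpsa-ps10 is at 20.8 CPM in diestrus 2, and Rps2-ps13 follows Rps2 at about the same level.

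The members followed a shared profile across the libraries. The mean centred log2 level of the 78 members of 5 CPM or more was 0.22 and 0.29 at proestrus, -0.07 and -0.11 at estrus, -0.20 and -0.24 at metestrus, and 0.19 and -0.09 at diestrus. Each member's Pearson correlation with it had a median of 0.899 over the 8 libraries, 39 of 81 members reached 0.9 or more, as did 0.233% of other tested genes, and 11 stayed below 0.5. Members are part of the profile, and all values share the same library scaling. The 11 are Rps10 (-0.53), Rpl13a (-0.08), Rpl24 (0.05), Rpl7l1 (0.17), Rps3a1 (0.30), Rpsa (0.35), Rpl35a (0.39), Rps2 (0.45), Rps27l (0.47), Rpl30 (0.49) and Rpl36al (0.49). Outside the members, only protein-coding genes with a mean of 5 CPM or more and no Gm number, Rik name or hyphen in the symbol were ranked. Among these, the genes most like the profile were Ace (0.985), Eef1b2 (0.949), Ndufb11 (0.933), Sec22a (0.931), Clec11a (0.929) and Acvrl1 (0.929). Eef1b2, an elongation factor subunit, had 686 and 702 CPM at proestrus, 589 and 596 at estrus, 499 and 493 at metestrus, and 664 and 524 at diestrus, and was thus highest in proestrus and lowest in metestrus, as was the sum of the members.

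The other parts of the translation apparatus went separate ways between estrus and metestrus. Of 19 elongation factors, initiation factors and other messages known for TOP tracts, 1 rose and 6 fell, where 16.7% of all genes rose and 19.5% fell. The median log2 fold change was -0.26. With library totals 3 rose and 4 fell, and without 1 library of estrus or metestrus 2 to 4 fell. Eif4b, a helicase cofactor with a TOP message, fell from 877.5 ± 5.91 to 443.1 ± 5.88 CPM (SD, n = 2; adjusted p = 0.00211, edgeR), and Eif3f from 289.7 ± 4.07 to 156.2 ± 0.355 CPM (adjusted p = 0.00264). Of 3 other ribosome components, Fau, which encodes Rps30 fused to a ubiquitin-like protein, fell (1 of 3), from 505.8 ± 37.9 to 349.6 ± 28.9 CPM (adjusted p = 0.0309). Rack1, on the head of the small subunit, had 1407 ± 4.8 and 1055 ± 40.4 CPM and did not pass there (adjusted p = 0.0736).

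Ribosome assembly factors went the other way. Of 44 ribosome biogenesis genes, 40 rose from estrus to metestrus and 0 fell, with a median log2 fold change of 1.15, while 16.7% of all genes rose. Nop16 rose from 25.4 ± 2.50 to 57.0 ± 0.289 CPM (adjusted p = 0.00198, edgeR), Lyar from 20.6 ± 1.5 to 60.9 ± 5.73 (adjusted p = 0.00216), and Nop2, an rRNA methyltransferase, from 42.5 ± 7.44 to 115.9 ± 12.4 (adjusted p = 0.00247). All 44 were above 0 in each fit run. The count of 40 was 22 without estrus library 1 or metestrus library 2, 32 without estrus library 2 and 37 to 42 in the other fits. Summed, the 44 genes had 2799 and 3301 CPM at proestrus, 2134 and 2439 at estrus, 4408 and 5455 at metestrus, and 2980 and 3755 at diestrus. Metestrus lay above, and estrus below, all other libraries.

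The initiation factors Eif4b, Eif3e, Eif3f, Eif3h, Eif3k and Eif3l were counted with the TOP messages, where Eif4b and Eif3f fell. Of the 27 initiation factors outside that list, 11 rose from estrus to metestrus and 0 fell (median 0.34). The count was 16 with library totals, 4 without estrus library 1, 7 without estrus library 2 and 3 without metestrus library 2. Eif4g1, the scaffold of the cap-binding complex, rose from 448.9 ± 31.5 to 852.6 ± 39.0 CPM (adjusted p = 0.00352, edgeR), and Eif5a from 467.5 ± 9.98 to 923.0 ± 56.4 (adjusted p = 0.00619). Of 12 genes of RNA polymerase I and its factors, 4 rose and 1 fell, against 16.7% and 19.5% of all genes. Polr1a, the largest subunit, rose from 41.2 ± 1.78 to 98.4 ± 5.86 CPM (adjusted p = 0.00190), while Polr1d, shared with RNA polymerase III, fell from 81.6 ± 5.08 to 59.3 ± 0.622 (adjusted p = 0.0179). Of 77 tested mitochondrial ribosomal proteins, which form the separate ribosome of mitochondria, 31 rose and 2 fell (median 0.34), whereas of the 81 cytosolic members 4 rose and 7 fell. These lists were not tested against each other.

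Of 23 genes of growth control, 3 rose and 6 fell between the same stages, where 16.7% of all genes rose and 19.5% fell, so the counts are near those of all genes. Myc rose from 50.4 ± 2.9 to 124.6 ± 7.11 CPM (adjusted p = 0.00342, edgeR) and had 76.8 and 88.7 CPM in proestrus and 141 and 193 in diestrus. Deptor, an inhibitor of mTOR, fell from 105.7 ± 3.43 to 40.7 ± 3.79 CPM (adjusted p = 0.00257). Ddit4, which restrains mTOR under stress, fell from 71.3 ± 1.05 to 29.8 ± 15.1 CPM (adjusted p = 0.0228). All 12 genes of DNA replication and mitosis rose between these stages, from sums of 229 and 186 CPM to 972 and 1189.

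**Figure D5:**
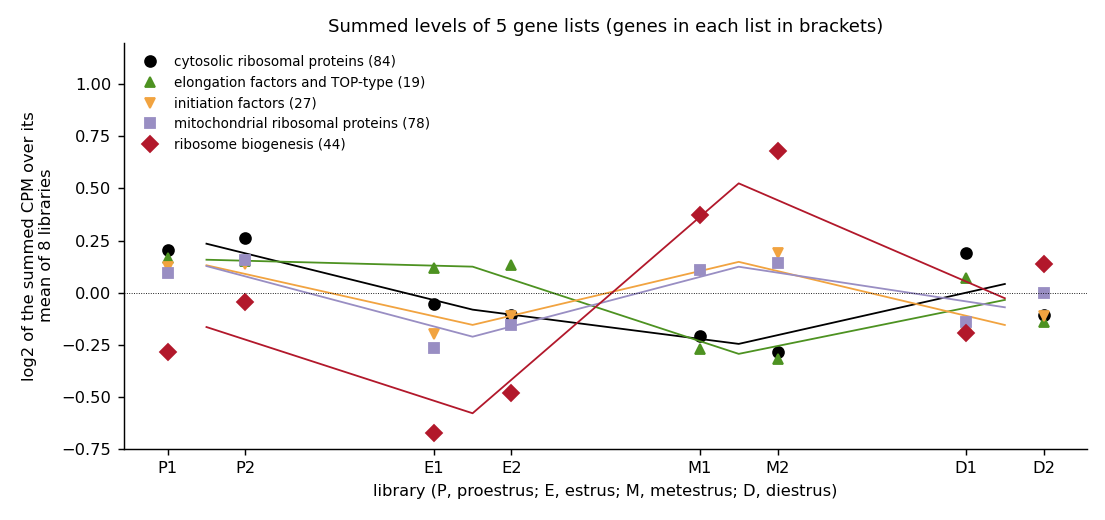
Log2 of the summed CPM of 5 gene lists over its mean of 8 libraries, by library, with a line through the stage means. Ribosome biogenesis genes are lowest in estrus and highest in metestrus, with 2134 to 2439 and 4408 to 5455 CPM. The 84 cytosolic ribosomal protein genes and the list of elongation factors and TOP-type messages are lowest in metestrus.

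The cell types of the uterus were represented in every library, and some of their markers moved with the stages. None of 12 epithelial, 12 stromal or 12 smooth muscle markers was at 0. The epithelial markers summed to 6181 to 7365 CPM at proestrus and 4352 to 5071 at estrus. Their sums were 1467 to 1578 CPM at metestrus and 1034 to 1262 at diestrus. Of the 12, 10 passed as lower in metestrus than in proestrus, as did 22 of the 81 members and 10.3% of all genes. From proestrus to estrus 1 of the 12 passed as lower and 1 as higher, while 80 of the 81 members were below 0 and 6 passed as lower. Against diestrus, 9 of the 12 were higher in proestrus and 1 lower, while 2 of the 81 members were higher and 1 lower. The smooth muscle markers summed to 20060 CPM in diestrus library 1 and 8299 in library 2, against 8983 to 12400 in the other stages, and diestrus library 1 is also the diestrus library with the higher sum of ribosomal protein counts. Stromal markers summed to 7891 to 11850 CPM in estrus and 14300 to 20760 elsewhere. Macrophage markers summed to 1718 and 2031 CPM in estrus and 555 to 985 elsewhere, and 8 of 10 fell from estrus to metestrus. The part of cell composition in the ribosomal protein levels was not tested.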

How the data were processed

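RNA of 8 uterus libraries was analysed, 2 per stage, grouped by the stage named in the labels. The deposited values are raw counts per gene, made by the authors and not normalised; totals were 17863546 to 21896786 per library. The submitters' processing notes name STAR, featureCounts of Subread and GRCm38 (mm10). Not given in the sources used here: versions, annotation release, strand setting and how shared exons were counted.

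Genes were matched to GENCODE M21 (52058 of 52308). With edgeR 4.0.16 in R 4.3.3, filterByExpr by stage left 18114 genes. TMM factors were 0.898 to 1.11, and the quasi-likelihood fit had stage as its only term and used the 8 libraries together. The stages together and each of the 6 pairs were tested two-sided, with Benjamini-Hochberg adjusted p under 0.05 over all genes as the threshold. Errors of fold changes are SE, those of levels SD (n = 2). The procedure was tested on simulated data. Alternatives were other scalings, DESeq2 1.42.0, limma-voom (limma 3.58.1), other filters, pair-only fits, leaving out each library, and a block for replicate number.

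Lengths are of 1 transcript per member, by APPRIS rank, then complete ends, then the shortest. A copy is a pseudogene that shares at least 10% of a member's 50-base words; each copy was given to the member it shares most with. Start sites are from RefSeq (GRCm38.p6).

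The symbol rule that gives the members uses no values, but this gene set and the lists were chosen with earlier results of these data known. Members named are the stalk, platform and paralogue genes, the 10 of smallest p in the test of all stages, up to 4 called members per direction and pair with the largest change, the 4 highest and 4 lowest per kilobase and the 4 steadiest. The 6 genes most like the members' profile among those ranked were named too, and up to 3 with the smallest p of a list. Rpl7a, Rps3a1, Rpl29, Rpl30, Rpl35a and the other members that differed between libraries, and the copies, were chosen after their values were seen. Same-numbered libraries did not deviate together throughout (correlations from -0.0926 to 0.145), so the numbers do not pair them. One item that the naming rule covers is not reported here.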

Additional observations from a re-analysis of the deposited data

How the results depend on the processing

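Counts of called members moved with several choices, at 2 libraries per stage; members under about 10 CPM also have few counts. Leaving out 1 library gave 1 to 65 calls across the stages (17 with all), 0 to 31 in estrus against proestrus (6), 1 to 18 in metestrus against estrus (11), 0 to 20 in diestrus against metestrus (0), 0 to 16 in proestrus against diestrus (3), 0 to 14 in estrus against diestrus (2) and 0 to 57 in metestrus against proestrus (23). In the same order, library totals without TMM gave 5, 2, 4, 0, 1, 5 and 6. Scaling by the members' own sum gave 2, 0, 3, 0, 1, 0 and 2, a scaling that centres the members by construction: 46 of 81 then lay above 0 in metestrus against proestrus, in place of 2, Rpl3 (0.0107) being the only named call that turned. DESeq2 gave 44, 18, 14, 2, 11, 3 and 49. Without a filter the counts were 6 in metestrus against estrus, 1 in diestrus against metestrus, 0 in proestrus against diestrus and 1 in estrus against diestrus. With only the libraries of a pair they were 19 in metestrus against estrus, 0 in proestrus against diestrus, 1 in estrus against diestrus and 54 in metestrus against proestrus. The causes were not tested. DESeq2's size factors in edgeR, TMM without the members, limma-voom, a filter at 1 CPM in 2 libraries and the copies' counts added, an alternative chosen after seeing the data, gave each count within 1.5 times. With the replicate number as a block, 13 members passed across the stages, all among the 17, and 5, 10, 0, 3, 3 and 25 in the pairs. Of the calls of named genes, the rise of Rpl7l1 from estrus to metestrus passed in all fits run.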
